A study of Mus musculus with 2 samples.

Results

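Foxp3 and the 5 genes of the Ikaros zinc finger family, Ikzf1 to Ikzf5, were examined in splenic regulatory T cells (Tregs) of mice with and without a dominant negative TGF-beta receptor II. The genes were taken through an annotation of the array that assigns a probe set, a group of short oligonucleotides read out as 1 value, to exactly 1 gene. All 6 genes had at least 1 such probe set, and together they had 14, out of 34945 probe sets and 18193 genes named in this way. Every probe set is reported here, whether it was bright or dim.

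The study has 2 samples of total RNA. The DNR sample came from mice that carry the dominant negative receptor (DNR), and the WT sample from wild-type mice. Both are on the C57BL/6 background, 10 weeks old and naive, and both RNAs are labelled as CD4+Foxp3+ Tregs sorted by flow cytometry from the spleen. The sorting text attached to the WT sample also names DNR mice; its title, source and genotype entries all say wild type, and these were followed. The number of mice behind each RNA, the way Foxp3 was detected in living cells and the promoter that drives the receptor are not stated in the labels.

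Foxp3 encodes the forkhead transcription factor that establishes and maintains the Treg lineage, and TGF-beta signalling can induce it in peripheral CD4+ T cells. Ikaros family proteins bind DNA through zinc fingers near one end and pair with each other through zinc fingers at the other, and they recruit chromatin remodelling and corepressor complexes. Ikzf1 encodes Ikaros, Ikzf2 Helios, Ikzf3 Aiolos, Ikzf4 Eos and Ikzf5 Pegasus. Helios and Eos are known for high expression in Tregs, and Eos for acting with Foxp3 in gene silencing.

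The promoter regions of Foxp3, which had a higher signal in the DNR sample, and Ikzf5, whose 2 probe sets both had a lower one, are shown because they differ in kind. They are the 250 bases before an annotated start in RefSeq, for Foxp3 the first of 2 starts, on build GRCm38.p6, at chrX:7579426-7579675 on the plus strand and chr7:131410479-131410728 on the minus strand. Capitals mark matches on either strand to the TATA box TATAAA, the Ikaros core GGGAA or the SMAD half-site, which is CAGAC on one strand and thus GTCTG on its complement; these matches do not overlap.
Foxp3: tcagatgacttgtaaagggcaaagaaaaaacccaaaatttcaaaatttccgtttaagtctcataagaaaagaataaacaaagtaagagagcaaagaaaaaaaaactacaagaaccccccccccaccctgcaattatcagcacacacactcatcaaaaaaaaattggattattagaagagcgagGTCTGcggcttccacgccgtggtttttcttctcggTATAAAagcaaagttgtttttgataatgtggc
Ikzf5: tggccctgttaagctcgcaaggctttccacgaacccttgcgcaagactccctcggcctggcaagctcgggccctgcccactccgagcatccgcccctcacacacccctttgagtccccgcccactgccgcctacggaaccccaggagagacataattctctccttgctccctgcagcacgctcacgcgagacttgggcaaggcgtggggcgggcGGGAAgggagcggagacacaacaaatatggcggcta
The printed Foxp3 window was 37.6% G and C with 6 CpG dinucleotides, and it held 1 TATA box 32 bases before the start (position -32) and 1 SMAD half-site at position -67. The window before the other Foxp3 start, at chrX:7580233-7580482 on the plus strand, was 46.0% G and C with 7 CpG dinucleotides and matched neither a TATA box, a SMAD half-site nor an Ikaros core. The Ikzf5 window was 64.0% G and C with 18 CpG dinucleotides and held 1 Ikaros core at position -36. Over 32851 windows of the same length the median was 52.4% G and C with 6 CpG dinucleotides. A TATA box was present in 12.4% of these windows, a SMAD half-site in 42.2% and an Ikaros core in 56.2%. The forkhead motif GTAAACA (3.17% of windows) and the SMAD palindrome GTCTAGAC (0.167%) were not matched in any of the 5 windows of Foxp3, Ikzf1 and Ikzf5, the members for which windows were given. These matches describe the letters only.

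Each value is a MAS5 signal on a linear scale, and the deposited arrays shared a mean of 500.0 once the highest and lowest 2% of values were set aside, as after scaling. The higher of the array medians, a signal of 110.9, was used as a floor: lower values were set to it, and a ratio with 1 value under it is a lower bound, written "at least". A gene takes the value of its brightest probe set. Of 11927 genes above the floor on at least 1 array (9281 of them on both), 22.6% differed by at least 1.5-fold and 6.93% by at least 2-fold; the median log2 ratio of DNR over WT was 0.01. With 1 array per genotype there is no replicate check and no test, so a difference here is between these RNA samples. The only error that can be given is the disagreement between probe sets of 1 gene, a robust SD of 0.36 on the log2 scale over 3968 genes, which holds no variation between mice or sorts. For the labelled cell type, all 9 Treg markers and all 10 pan T cell markers with a named probe set were above the floor on both arrays. The brightest Tgfbr2 probe set read 5457 in DNR and 8193 in WT; whether it can bind the transgene's RNA is not given, so it does not check the genotype.

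The family did not move as a block. Foxp3 and Ikzf2 (Helios) had higher signals in DNR Tregs, Ikzf4 (Eos) and Ikzf5 (Pegasus) had lower signals in every probe set above the floor, and Ikzf1 (Ikaros) and Ikzf3 (Aiolos) lay in between. By their gene values 4 of the 6 were lower, against 48.6% of all measured genes, and their median log2 ratio was -0.26. None of the 6 reached 1.5-fold, against 22.6% of all measured genes, though Ikzf4 at 1.49-fold and Ikzf5 at 1.48-fold came close. All 6 are bright, and bright genes reached it less often. Genes above the floor on both arrays were split into 5 equal groups by brightness. In the brightest group, which holds Foxp3, Ikzf1, Ikzf2 and Ikzf3, 7.11% reached 1.5-fold. In the next, which holds Ikzf4 and Ikzf5, 10.0% did.

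**Figure D1:**
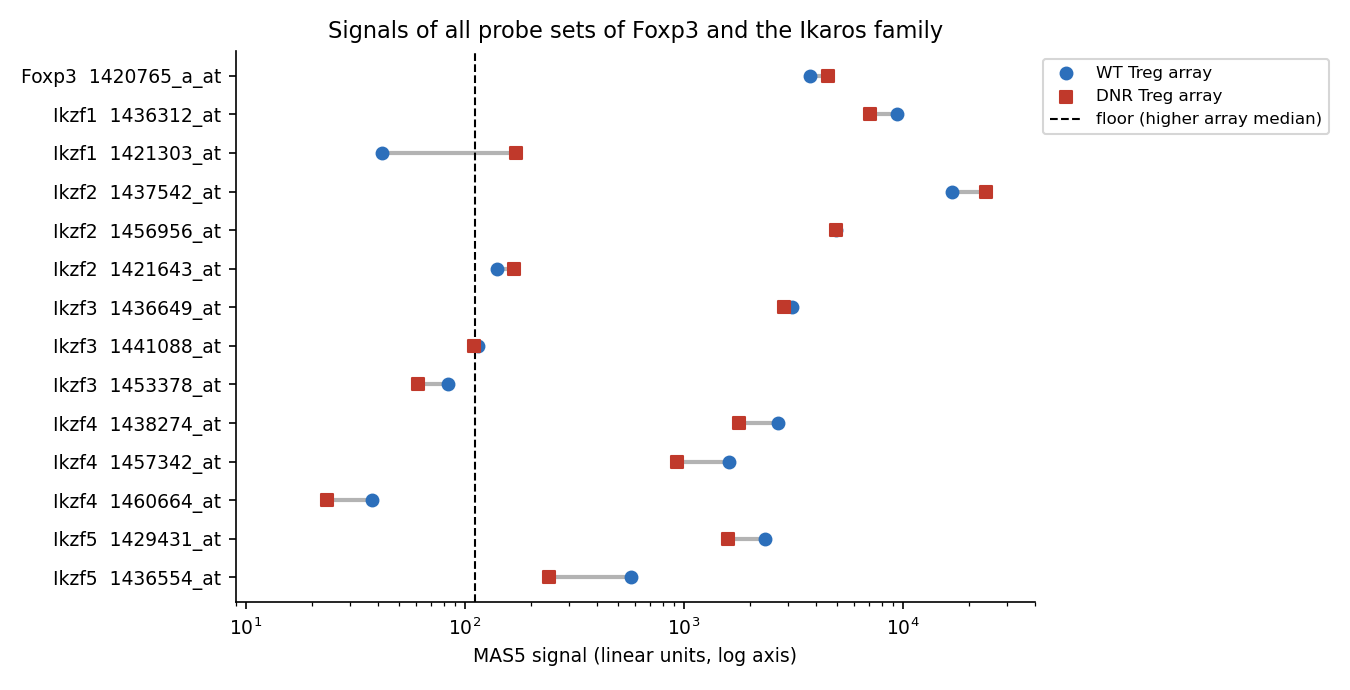
MAS5 signal (log axis) of each of the 14 probe sets on the WT array (blue circles) and the DNR array (red squares), with the floor of 110.9 as a dashed line. The DNR square lies to the left of the WT circle for both Ikzf5 probe sets and for all 3 of Ikzf4, the dimmest of which is under the floor.

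Foxp3 had 1 probe set, 1420765_a_at, which read 4550 in DNR and 3754 in WT. The DNR value was 1.21-fold higher, a log2 ratio of 0.28, which is smaller than the probe-set SD of 0.36. Among the 1856 genes in the brightest of 5 equal groups of genes above the floor on both arrays, 16.1% had a ratio as high or higher. Its probes can bind several transcripts of the gene, so it does not separate Foxp3 isoforms. In bulk RNA more Foxp3 per cell and a larger share of Foxp3+ cells in the sort cannot be told apart.

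All 3 Ikzf2 probe sets exceeded the floor on both arrays, and they did not give the same ratio. The brightest, 1437542_at, read 23891 in DNR and 16696 in WT, 1.43-fold higher in DNR (log2 ratio 0.52). The second, 1456956_at, read 4970 and 4954, which is a log2 ratio of 0.00. The third, 1421643_at, read 167 and 141, near the floor, with a log2 ratio of 0.25. No Ikzf2 probe set was lower in DNR, but the size of the difference depended on the one chosen. The brightest and the second differed by 0.51; among the 3968 genes with at least 2 such probe sets, 33.7% showed a gap of that size or more.

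Ikzf4, which encodes the Foxp3 partner Eos, was lower in DNR Tregs by both probe sets above the floor. Probe set 1438274_at read 1792 in DNR and 2679 in WT, 1.49-fold lower (log2 ratio -0.58). Probe set 1457342_at read 927 and 1608, 1.74-fold lower (log2 ratio -0.80). These gave similar ratios, with a gap of 0.22 that 67.3% of genes met or exceeded. The third, 1460664_at, was under the floor on both arrays (23.4 and 37.8) and gives no ratio.

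Ikzf5, which encodes Pegasus, a more distant member of the family, was also lower by both of its probe sets. Probe set 1429431_at read 1591 in DNR and 2358 in WT, 1.48-fold lower (log2 ratio -0.57). The dimmer 1436554_at read 242 and 575, 2.37-fold lower (log2 ratio -1.25). Their direction is shared, but their sizes lie 0.68 apart, a gap met or exceeded in 22.3% of genes. In the next of the 5 brightness groups, where Ikzf4 and Ikzf5 both fall, 5.77% of the 1856 genes were as low as Ikzf4 or lower and 6.20% as low as Ikzf5 or lower.

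**Figure D2:**
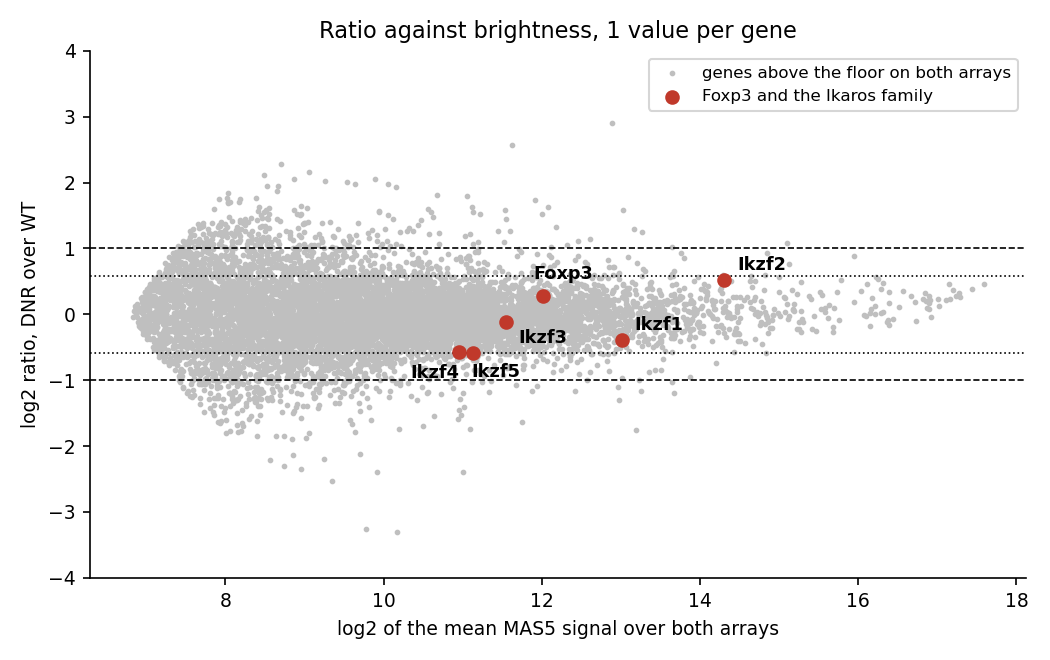
Log2 ratio of DNR over WT against the log2 of the mean signal, 1 point per gene above the floor on both arrays (grey, 9281 genes), with the 6 members in red. Dotted lines mark 1.5-fold and dashed lines 2-fold; all 6 members lie inside the dotted lines, Ikzf2 nearest the upper and Ikzf4 and Ikzf5 at the lower.

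Ikzf1, which encodes Ikaros, the founding member, was lower by its bright probe set and not by its dim one. Probe set 1436312_at read 7111 in DNR and 9355 in WT, 1.32-fold lower (log2 ratio -0.40), and 11.4% of the brightest of the 5 groups were as low or lower. Probe set 1421303_at read 171 in DNR and 41.7 in WT, so it was above the floor on the DNR array alone and at least 1.55-fold higher there. Being above the floor on the DNR array alone, this dim probe set could only be higher. The direction for Ikzf1 thus depends on whether that bound is used, and the median over both gave a log2 ratio of 0.12. Macrophages and B cells also express Ikzf1, and the part of such cells in its value was not tested. Of 9 measured macrophage and monocyte markers 8 were lower in DNR, against 48.6% of all measured genes. The other, Itgam, was above the floor on the DNR array alone and so could only be higher. Summed signals were 4167 in DNR and 5922 in WT over 12 genes, and Cd14, Cd163 and Fcgr1 were under the floor on both arrays. Of the 4 neutrophil markers measured (of 10 on the array) 3 were at least 2-fold higher in DNR. Over all measured genes 6.93% differed by that amount in either direction. Their median was 1.37, with summed signals of 1449 against 768. S100a8 and Ngp were above the floor on the DNR array alone and so could only be higher. Of the 2 above it on both arrays, Mmp9 was higher (537 against 184) and Elane lower (173 against 238, log2 ratio -0.46). S100a9, Camp, Ltf and Mpo were under the floor on both arrays. The part of neutrophils in the members' values was not tested.

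Ikzf3, which encodes Aiolos, had nearly equal signals. Probe set 1436649_at read 2863 in DNR and 3117 in WT, a log2 ratio of -0.12, within the probe-set SD. Probe set 1441088_at lay at the floor (110 and 114) and 1453378_at under it (61.0 and 83.6). B cells also express Ikzf3. Of 9 B cell markers on the array 5 were measured, 3 higher and 2 lower in DNR. Over all measured genes 51.4% were higher. Ms4a1 and Blk passed the floor in WT only and so could only be lower. Fcrla passed it in DNR only and so could only be higher. Cd79b (869 against 666) and Cd22 (444 against 162, log2 ratio 1.45) passed it in both samples and were higher. Over all such genes 53.5% were lower. Summed signals were 1778 in DNR and 1220 in WT, and Cd79a, Pax5, Cr2 and Ebf1 were under the floor on both arrays. The part of B cells in the Ikzf3 value was not tested.

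Across the 10 probe sets of the members that exceeded the floor on both arrays, 6 were lower and 4 higher in DNR, against 51.2% lower over all 18075 such probe sets. At least 1.5-fold lower were 2 of the 10 (background 10.5%), the dimmer of the 2 such probe sets of Ikzf4 and of Ikzf5, and 0 were at least 1.5-fold higher (background 11.3%). At least 2-fold lower was 1 (background 2.76%), in Ikzf5. The members' gene values exceeded the probe-set SD in 4 of 6, against 38.5% of genes above the floor on both arrays. With so few members these shares describe the family and do not set it apart.

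Of the other members of the Foxp subfamily, forkhead factors related to Foxp3, only Foxp1 was well above the floor, and it went the opposite way from Foxp3. Foxp1, which maintains quiescence in naive T cells and can pair with Foxp3, read 3203 in DNR and 5861 in WT by its brightest probe set, 1.83-fold lower (log2 ratio -0.87). All 8 Foxp1 probe sets were above the floor on both arrays and lower in DNR, with log2 ratios from -1.25 to -0.40 and a median of -0.98; 7 were at least 1.5-fold lower and 4 at least 2-fold. They read the same 2 RNAs, so they show agreement between probes and not between mice. Foxp2 (118 against 184) and Foxp4 (195 against 273) were near the floor, with log2 ratios of -0.65 and -0.48. All other Foxp2 probe sets were under the floor on both arrays, so its ratio rests on 1 dim reading. Of these 3 genes 2, Foxp1 and the dim Foxp2, were at least 1.5-fold lower, where 9.85% of all measured genes were.

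**Figure D3:**
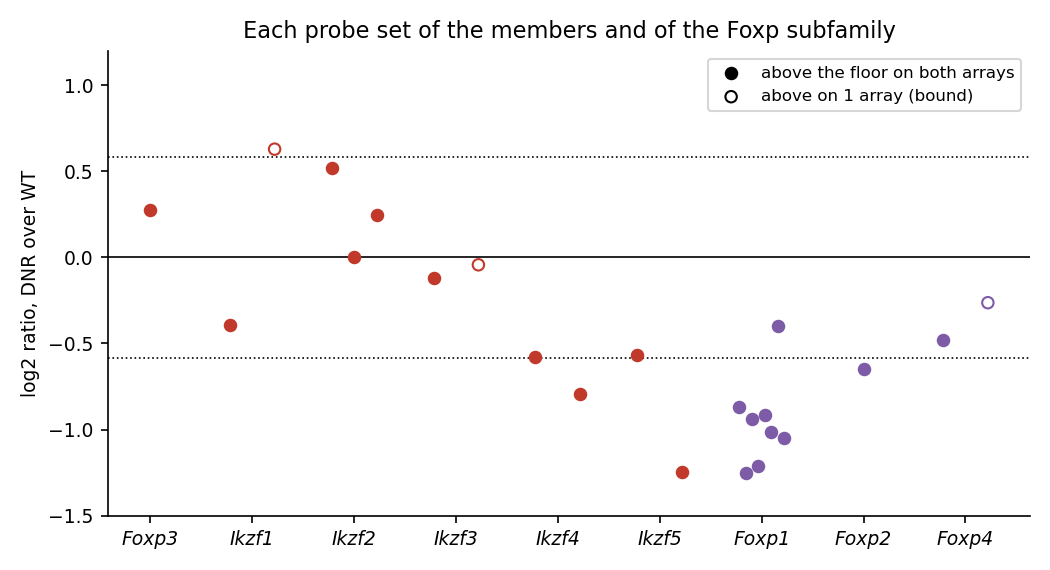
Log2 ratio of DNR over WT for each probe set above the floor on at least 1 array, members in red and the other Foxp genes in purple; open circles are bounds from probe sets above the floor on 1 array, and dotted lines mark 1.5-fold. The 8 Foxp1 points lie between -1.25 and -0.40, while the Foxp3 point is at 0.28.

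Factors that act on the Foxp3 gene were mostly lower in DNR Tregs by small amounts. All 26 on the list were above the floor on both arrays: 19 were lower and 7 higher, with a median log2 ratio of -0.22. Over all genes above it on both arrays 53.5% were lower and the median was -0.03. In the lower direction 3 reached 1.5-fold (11.5%, against 9.85% of all measured genes). At least 1.5-fold higher were 0, against 9.51% of all genes above the floor on both arrays. These counts use the brightest probe set of each gene. Other probe sets above the floor on at least 1 array passed 1.5-fold in both directions. Examples are Nfatc2 at 1.38, Nfatc1 at 0.95 and Kmt2d at 0.82, and Runx1 at -1.05, Smad2 at -0.89 and Ets1 at -0.73. Bach2, a repressor that restrains effector differentiation, read 1675 against 3003 (log2 ratio -0.84), with -0.44 for its second probe set. Nr4a1, an early response factor downstream of the T cell receptor, read 14195 against 23593 (log2 ratio -0.73). Satb1, a chromatin organiser, read 5548 against 8408 (log2 ratio -0.60); its other 4 probe sets were also lower, between -1.31 and -0.05. Conventional CD4 T cell markers form a list that also holds Satb1. Of 6 measured, all above the floor on both arrays, 5 were lower (median -0.33), against 53.5% of all such genes. Summed signals were 16591 in DNR and 19712 in WT, and Cd40lg was under the floor on both arrays. The part of conventional CD4 T cells in these values was not tested.

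Proteins that bind or modify Foxp3 protein had a similar spread. Of 19 measured genes, which include Ikzf2 and Ikzf4, 12 were lower and 7 higher, and the median was -0.21. At least 1.5-fold lower were 2, Foxp1 and Lef1, a factor of naive T cells that read 5018 against 7635 (log2 ratio -0.61, and -0.76 by its second probe set), and 0 were at least 1.5-fold higher. The share lower, 10.5%, was near the 9.85% of all measured genes. Over all genes above the floor on both arrays, as these 19 are, 53.5% were lower and 9.51% were at least 1.5-fold higher. These counts use the brightest probe set of each gene. Other probe sets above the floor on at least 1 array passed 1.5-fold in both directions, such as Nfatc2 at 1.38 and Hdac7 at -1.01.

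Genes that Foxp3 is known to hold high did not follow the Foxp3 signal in 1 direction. Of 18 measured, 8 were higher and 10 lower, with a median of -0.15. At least 1.5-fold lower were 4: Itgae, the integrin chain CD103 (1134 against 2999), Nt5e, the ecto-enzyme CD73 (3384 against 7605), Izumo1r, folate receptor 4 (1734 against 3515), and Nrp1 (5809 against 8798). The Itgae, Nt5e and Izumo1r log2 ratios were -1.40, -1.17 and -1.02, but the second Nt5e probe set, near the floor, was at 0.10. At least 1.5-fold higher were 2: Tnfrsf9, the costimulatory receptor 4-1BB (3090 against 1604), and Ebi3, a subunit of interleukin-35 (2069 against 1272). These shares were 22.2% lower and 11.1% higher, against 9.85% and 12.8% of all measured genes. Over all genes above the floor on both arrays, as these 18 are, 53.5% were lower and 9.51% were at least 1.5-fold higher. Nrp1, Tnfrsf9 and Ebi3 are named after their values were seen.

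Genes that Foxp3 is known to hold low also had ratios in both directions. Of 12 measured, 5 were higher and 7 lower, with a median of -0.04, and 48.6% of all measured genes were lower. Of these 5, Il2, Il4 and Il21 were above the floor on the DNR array alone and so could only be higher. Of the 9 genes above it on both arrays 2 were higher and 7 lower, against 53.5% lower over all such genes. At least 1.5-fold higher were Ifng, the gene of interferon-gamma (3524 against 1227, log2 ratio 1.52), Il21 (230 against 70.5, at least 2.07-fold) and Il2 (168 against 92.1, at least 1.52-fold). At least 1.5-fold lower were Tgfbr3, a TGF-beta co-receptor (186 against 669, log2 ratio -1.85), Igfbp4 (607 against 1354, -1.16), Dapl1 (267 against 423, -0.67) and Satb1. These are 25.0% higher and 33.3% lower, against 12.8% and 9.85% of all measured genes, but Il21 and Il2 were counted only through the DNR array, where they are above the floor. Of the 9 genes above it on both arrays 1 was at least 1.5-fold higher (11.1%, against 9.51% of all genes above the floor on both). Igfbp4 is uncertain, since its other 5 probe sets above the floor ranged from -1.65 to a bound of 1.10. Il2 and Dapl1 are named after their values were seen. Markers of CD8 T cells and NK cells, which also make interferon-gamma, were low on both arrays. Of 5 measured 4 were higher in DNR, against 51.4% of all measured genes. Summed signals were 1013 and 783 over 6 genes, and Klra8 was under the floor on both arrays. Ncr1 was above the floor on the DNR array alone and so could only be higher. Of the 4 above it on both arrays 3 were higher and Cd8b1 was lower (171 against 294, log2 ratio -0.78). The other probe sets of Cd8a and Prf1 were not all higher. The part of CD8 T cells and NK cells in the Ifng value was not tested.

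Components of the NuRD complex, the chromatin remodeller that Ikaros and Aiolos recruit, differed little. All 14 were measured, 6 higher and 8 lower, with a median of -0.10. Lower by at least 1.5-fold were 2, the remodelling ATPase gene Chd3 (1461 against 2979, log2 ratio -1.03) and Mbd3 (449 against 774, -0.79), and 0 were at least 1.5-fold higher. The lower share was 14.3%, against 9.85% of all measured genes. Over all genes above the floor on both arrays, as these 14 are, 53.5% were lower and 9.51% were at least 1.5-fold higher. Other corepressors of the family showed no ratio of 1.5-fold in 6 measured genes, 5 of them lower, with a median of -0.22; the brightest, Ctbp1, a partner of Eos, read 6774 against 7429 and Sin3b 4992 against 5012. In the cereblon ubiquitin ligase, which destroys Ikaros and Aiolos in the presence of thalidomide analogues, 4 of 5 genes were lower (median -0.30). These include Cul4a, its scaffold, at low signals of 200 against 305, and Rbx1, named after its value was seen. Rbx1 was above the floor in WT alone, at least 1.67-fold lower, and so could only be lower. Of the 4 genes above it on both arrays 3 were lower, against 53.5% of all such genes. Over all measured genes 48.6% were lower, and 9.85% by at least 1.5-fold, as Cul4a and Rbx1 were.

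T cell genes known to be regulated by Ikaros family proteins had higher signals in DNR in most cases. Of 17 measured, 13 were higher and 4 lower, with a median of 0.39, where 51.4% of all measured genes were higher. At least 1.5-fold higher were 7 (41.2%, against 12.8% of all measured genes). Of these 7, Il2 and Notch3 were above the floor on the DNR array alone and so could only be higher. Of the 15 genes above it on both arrays 11 were higher, and 5 reached 1.5-fold (33.3%, against 9.51% of all genes above the floor on both). Over all such genes 53.5% were lower. The median was 0.13 once probe sets for several transcripts were left out, and a floor at the 60th percentile gave 0.19. Ifng led, followed by Tbx21, which encodes the Th1 factor T-bet (731 against 283, log2 ratio 1.37), and Prdm1, which encodes Blimp-1, a factor of effector Tregs (690 against 277, 1.31). Lower by that amount were 3, named after their values were seen. These were the cell cycle inhibitor gene Cdkn1b (4378 against 8065), the survival gene Bcl2 (2584 against 4386) and Bcl6 (529 against 883). The second Bcl6 probe set went the other way. The other 4 Bcl2 probe sets above the floor on at least 1 array were at -0.33, 0.17, 0.19 and -0.55. The list mixes genes that Ikaros proteins raise and lower, so its median has no single meaning for Ikaros activity.

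**Figure D4:**
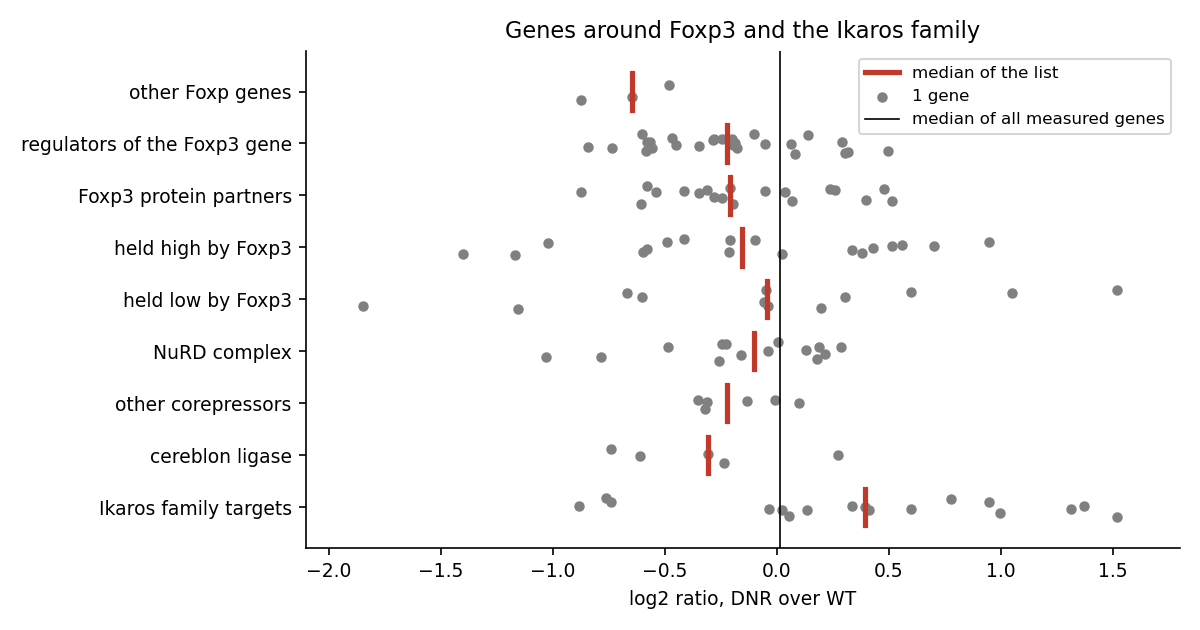
Log2 ratio of DNR over WT of each measured gene (grey points) in the 9 gene lists around the members, with each list's median in red and the median of all measured genes, 0.01, as a black line. The other Foxp genes have the lowest median (-0.65), which is the value of Foxp2 near the floor, and the Ikaros family targets the highest (0.39).

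The genes nearest to Foxp3 in these arrays were sought among the 102 other genes of these lists that were above the floor on both arrays, by the absolute difference of log2 ratios. They were Crbn (0.27), Rbbp7 (0.29) and Rora (0.26). This likeness rests on 2 arrays and 1 ratio per gene. The other probe sets of these genes did not all share it: those of Crbn were at -0.41 and 0.19, and the second of Rbbp7 at -0.00.

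**Figure D5:**
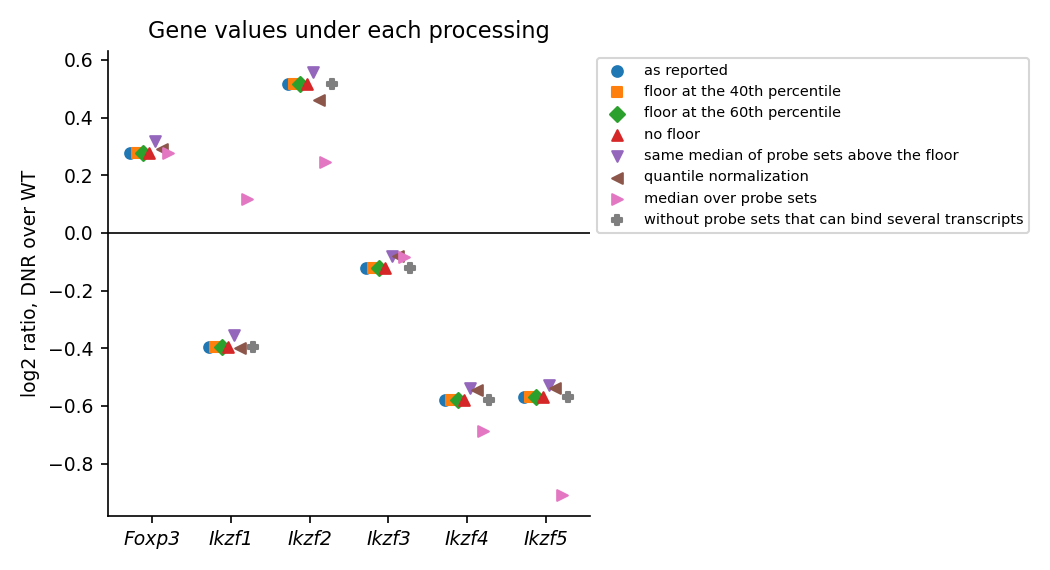
Log2 ratio of DNR over WT of each member gene (vertical axis) under the processing used here and 7 alternatives (symbols). Foxp3 and Ikzf2 stay above 0 and Ikzf3, Ikzf4 and Ikzf5 below it wherever a value could be had. The changed floors could not move any of these values. Ikzf1 turns to 0.12 with the median over its probe sets, the dim one of which could only be higher. Foxp3 has no value once probe sets for several transcripts are left out.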

How the data were processed

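Total RNA of 1 DNR and 1 WT sample was labelled with biotin and hybridised to Affymetrix mouse arrays. The authors deposited 1 MAS5 signal intensity per probe set and array, per the submitters' processing notes; the scaling target and detection calls are not given in these sources. Of 45101 probe sets, 64 controls were set aside. Symbols were updated through the Entrez identifier, and 0 changed. From the signals, the floor, the log2 ratio of DNR over WT and the counts were computed in Python 3.11.15 with pandas 2.3.3. With 1 array per genotype no test was made, and precision is limited by the number of arrays. The procedure was tested on simulated data.

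The members and gene lists were chosen with earlier results of these data known. The naming rule covers all members; per list, up to 3 genes with the largest ratios of at least 1.5-fold above the floor on both arrays and up to 2 with a bound of at least 2-fold, or otherwise the 2 brightest; and the 3 genes nearest to Foxp3. Alternatives changed the floor, the scaling, the probe set per gene and the probe sets allowed. The promoter windows come from RefSeq; proteins were not used here.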

Additional observations from a re-analysis of the deposited data

How the results depend on the processing

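The directions of Foxp3, Ikzf2, Ikzf3, Ikzf4 and Ikzf5 were the same under every alternative that gave a value, with log2 ratios of 0.28 to 0.32, 0.25 to 0.56, -0.12 to -0.08, -0.69 to -0.54 and -0.91 to -0.53. Foxp3 has no value once probe sets for several transcripts are left out, since its 1 probe set is of that kind. Changing the floor could not move any member's gene value, because the signals behind it lie above every floor used. Leaving out probe sets for several transcripts could not move the other members, nor could the median over probe sets move Foxp3. The directions are thus checked only by the scalings and, for Ikzf2 to Ikzf5, by the median over probe sets. When a gene took the median of its probe sets, Ikzf1 moved from -0.40 to 0.12, through a dim probe set that could only be higher. The members' median moved from -0.26 to 0.02, and the members at least 1.5-fold different from 0 to 2 (Ikzf4 and Ikzf5). That median was -0.40 when probe sets for several transcripts, and with them Foxp3, were left out. The medians of the NuRD list (-0.10 to -0.02), the other corepressors (-0.32 to -0.13) and the genes held low by Foxp3 (-0.05 to -0.00) kept their sign. Over all genes, the 477 higher and 350 lower by at least 2-fold depended on the floor: 1026 and 550 with it at the 40th percentile, 250 higher at the 60th, and without any floor 3617 and 2655, where dim probe sets of all genes enter. No paired analysis was possible because each genotype has 1 array.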

Other observations

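For Ikzf1, Ikzf2 and Ikzf4, the probe set designed from a RefSeq mRNA was not the bright one: it read 171 and 41.7, 167 and 141, and 23.4 and 37.8 in DNR and WT, while a probe set from another sequence was the brightest in all 3. Over the 1966 genes with probe sets of both kinds, the brightest came from another sequence in 48.5%. The values of these genes would differ had the RefSeq-derived probe sets been used. Ikzf1 would be at least 1.55-fold higher in DNR, by a probe set that could only be higher, being above the floor there alone. Ikzf2 would have a log2 ratio of 0.25 near the floor, and Ikzf4 would have none.

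Runx1, whose protein binds the Foxp3 gene and Foxp3 protein, was nearly equal by its brightest probe set (792 in DNR against 821 in WT, log2 ratio -0.05), whereas the 3 other probe sets that exceeded the floor on both arrays were at -0.24, -0.30 and -0.68. Smad3, which carries TGF-beta signals to the Foxp3 gene, read 2990 against 2399, a log2 ratio of 0.32. Both genes were singled out after their values were seen.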
